A study of Hordeum vulgare with 21 samples.

Results

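The step examined was steeping, the first phase of malting, in which dry barley grain takes up water before it germinates. Its members are 6 of the 21 libraries of the series: 3 libraries of grain taken out of the steep (DoG0, which stands for 0 days of germination) and 3 of dry, unmalted mature grain (Dry), each labelled replicate A, B and C. All are whole grain of the cultivar Conrad, a 2-row spring malting barley (Hordeum vulgare), and no transgene, mutation or added agent is named for any group. Per the labels, the grain was 1 lot mixed from 5 samples of 4 growing regions, and each DoG0 library came from its own malting run of 110 g dry weight. The steep alternated 4 h under water at 16 °C with 4 h of air rest at 18 °C for 38 h in all, to a moisture of 45%. The replicates therefore share their grain, and p-values measure only how far runs, or samples of dry grain, lie apart, which may be technical. For the tests of single genes that spread was fitted over the 21 libraries of all 7 stages, not over these 6 alone. RNA was selected by its poly-A tail, and the tables hold expected counts (estimated reads per gene) and TPM (a transcript abundance corrected for transcript length that sums to the same total in each library). Total expected counts were 26708660 to 27198503 in DoG0 libraries and 18783859 to 25488566 in Dry libraries.

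A mature cereal grain carries messenger RNA made while it ripened, held in the dry tissues until water returns. The embryo and the aleurone layer around the endosperm are alive in dry grain, whereas the starchy endosperm is dead at maturity. On water uptake some stored messages are broken down and transcription starts again. The tables pair no name or function with a gene ID, none of the 35826 IDs occurs in the reference table of 58438 genes, and no role list or tissue marker could be matched to them. The tissue label was therefore not checked against markers. Genes are described by level, change, transcript length and chromosome, and 4 IDs are given. In whole grain, fewer cells of a type and less RNA per cell cannot be told apart, and all values are relative to the pool of each library, since RNA per grain was not measured.

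The stored pool of dry grain was dominated by few messages, and the pool out of the steep was more even. A single gene, the most abundant at both stages, held 3.10%, 3.30% and 3.70% of TPM in DoG0 replicates A, B and C, against 14.3%, 10.2% and 11.0% in Dry replicates A, B and C. No DoG0 library reached the lowest Dry library, and Dry replicate A stood above the other Dry libraries. The expected counts of this gene were not whole in at least 1 library. That marks reads shared with another gene, so its level is less certain. The same held for most of the 10 most abundant genes of either stage. The effective number of genes, the exponential of the Shannon entropy of the TPM shares, was 4259, 3722 and 3809 in DoG0 libraries and 1138, 2177 and 2072 in Dry libraries. The number of genes needed to reach 50% of TPM was 875, 737 and 778 in DoG0 libraries and 210, 446 and 442 in Dry libraries. The number needed for 90% was 6539, 6168 and 6267 in DoG0 libraries, against 4224, 5217 and 5195 in Dry libraries. The groups did not overlap in any of these 4 measures.

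**Figure D1:**
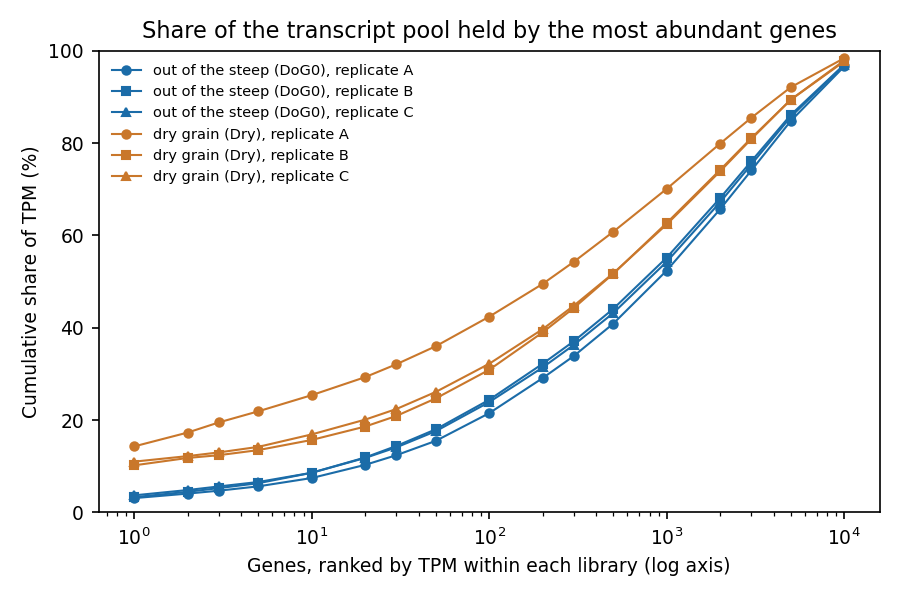
Cumulative share of TPM (%) against the number of genes, ranked by TPM within each library (log axis), for the 3 DoG0 and 3 Dry libraries. The DoG0 curves lie below the Dry curves over the plotted ranks, and Dry replicate A lies above the other Dry libraries, with 42.4% of TPM in its first 100 genes.

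Part of the difference was that of the leading gene. With that gene set aside, the 10 most abundant of the remaining genes held 4.82%, 5.87% and 5.45% of the remaining TPM in DoG0 libraries and 13.5%, 6.47% and 7.09% in Dry libraries, and 955, 814 and 868 genes in DoG0 libraries, against 378, 621 and 639 genes in Dry libraries, made up 50% of it. The difference in the share of the 10 most abundant genes was then -3.63 percentage points, against -11.1 with the leading gene, and it was -1.40 percentage points without Dry replicate A as well, which stood above the other Dry libraries. Exact two-sided permutation tests over the 6 libraries gave p = 0.1 for the 10-gene share, the 100-gene share and the genes making up 50% of TPM, also after adjustment over these 3 tests, and 0.1 is the smallest p that 3 libraries against 3 allow. By expected counts, which are not corrected for length, the 10-gene share differed by -5.40 percentage points and the genes making up 50% of the pool by 214.3, against 430.7 by TPM.

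More of the pool lay at middle abundance out of the steep. Genes were classed anew in each library here, so a class does not hold the same genes at both stages. Genes at 10 to 100 TPM numbered 8447, 8180 and 8250 in DoG0 libraries and 6667, 7459 and 7370 in Dry libraries. They held 31.0%, 29.5% and 30.2% of TPM in DoG0 libraries, against 22.0%, 25.8% and 25.9% in Dry libraries. Genes at 100 to 1000 TPM numbered 1941, 1845 and 1868 in DoG0 libraries and 1321, 1567 and 1609 in Dry libraries. The groups did not overlap in these counts and shares. Genes at 1000 TPM or more were about as many at either stage, 98, 105 and 102 in DoG0 libraries and 94, 105 and 93 in Dry libraries, but they held 21.3%, 24.9% and 24.1% of TPM in DoG0 libraries, against 41.8%, 31.4% and 31.5% in Dry libraries. The numbers of genes at the top level overlapped between the groups, and their shares of the pool did not. Genes at 1 TPM or more were 16885, 16570 and 16545 in DoG0 libraries and 14798, 15856 and 15655 in Dry libraries. With genes fixed by their mean TPM in DoG0, those at 10 to 100 TPM held 30.2% in Dry and 30.4% in DoG0. Those at 100 to 1000 TPM held 38.5% and 43.3%. With genes fixed by their mean TPM in Dry, the shares in Dry and DoG0 were 25.1% and 37.9% at 10 to 100 TPM. At 100 to 1000 TPM they were 37.2% and 38.5%.

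The message pool differed more across the steep than within a stage. The exchanged share of 2 libraries was taken as 50% of the summed absolute differences between their TPM percentages, so that 0% means the same pool and 100% means no message in common. Between a DoG0 and a Dry library it lay between 33.8% and 45.3%, with a median of 35.7% over the 9 pairs. Between libraries of one stage it lay between 6.44% and 11.4% in DoG0 and between 12.6% and 19.0% in Dry, over 3 pairs each. The 2 ranges did not overlap, but the pairs share libraries and were not tested. Without Dry replicate A the mean over the pairs across the stages was 35.3%, against 38.2% with it.

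Losses came from few genes and gains from many. By stage means of TPM, 37.1% of the pool was exchanged. The leading gene gave up 22.8% of the lost TPM, the 10 genes with the largest losses gave up 38.7%, and 32 genes accounted for 50% of it. On the gaining side the 10 genes with the largest gains held 9.93% of the gained TPM, and 436 genes were needed to reach 50% of it. To reach 90%, 4043 genes were needed on the gaining side and 841 on the losing side. Since TPM sum to the same total, a fall of the leading gene raises the share of all others. In mean TPM 16380 of all 35826 genes gained by any amount, without a test. Of the 20637 tested genes, 6027 were called higher by edgeR at adjusted p under 0.05. These counts differ in threshold and in the genes covered. The part of the contrast due to the fixed total was not tested.

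Of the 10 most abundant messages of dry grain, all 10 were lower out of the steep (edgeR quasi-likelihood test, Benjamini-Hochberg adjusted p under 0.05), beside 32.0% of all 20637 tested genes, and 2 of them were still among the 10 most abundant there. Since they were picked for a high dry level in the same libraries, their fall follows in part from the choice and is a description. Log2 fold changes come from scaled counts in the edgeR fit and are not ratios of the TPM printed beside them. Over all tested genes their median was -0.02, against 0.36 on log2(TPM + 1). The leading message had 30992, 32963 and 37019 TPM in DoG0 libraries and 142855, 101717 and 109886 TPM in Dry libraries (log2 fold change -2.51, SE 0.28), and it kept its first rank. The second had 2603, 4575 and 4136 TPM in DoG0 libraries and 30162, 16424 and 11934 TPM in Dry libraries, and ranked eighth out of the steep. The sixth had 364.0, 576.2 and 458.1 TPM in DoG0 libraries and 11488, 5971 and 3957 TPM in Dry libraries (log2 fold change -4.68, SE 0.45), and ranked 266 out of the steep. The range within this set was wide, because the tenth had 3523, 3624 and 3840 TPM in DoG0 libraries and 4224, 4166 and 4835 TPM in Dry libraries. These 10 messages together held 5.16% of TPM in DoG0 and 19.1% in Dry. The third of them had 22217 TPM in Dry replicate A and 4625 and 4840 TPM in replicates B and C, so that 1 library set most of its dry mean.

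The 100 most abundant messages of dry grain were likewise mostly lower, with part of them kept at the top. Of these, 80 were lower and 7 higher out of the steep and 13 did not pass the test, beside 32.0% lower and 29.2% higher among all tested genes. They too were picked for a high dry level in the same libraries, so their fall follows in part from the choice. Their median log2 fold change was -1.90 and 34 had fallen at least 8-fold, while 45 of them were also among the 100 most abundant out of the steep. As a set they held 16.5% of TPM in DoG0 and 34.7% in Dry. Their median relative transcript length was 0.522, where 1 is the typical gene of a library. Falls were as frequent among short, abundant genes in general. In the shortest of 5 length groups, 327 of 420 genes at a mean of 100 to 1000 TPM over the 6 libraries were lower. At 1000 TPM or more it was 36 of 43.

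Most of the leading messages out of the steep were already abundant in dry grain. Of the 10 most abundant in DoG0, 9 ranked within the first 124 in Dry, and 1 ranked 646. The message of second rank had 9836, 11726 and 11449 TPM in DoG0 libraries and 2914, 1583 and 3146 TPM in Dry libraries. Its log2 fold change on scaled counts was 1.43 (SE 0.23, edgeR adjusted p = 4.34e-05). The message of rank 646 in Dry had 3045, 4747 and 3627 TPM in DoG0 libraries and 240.9, 157.1 and 308.0 TPM in Dry libraries. With a log2 fold change of 3.39 (SE 0.31, edgeR adjusted p = 5.63e-08) it reached the seventh rank, with no overlap between the groups, and stood at 949.7 TPM after 1 day of germination and 297.4 TPM after 2 days. The 100 most abundant of DoG0, picked for a high level in these same libraries, held 41 genes that were higher, 27 that were lower and 32 that did not pass the test, beside 29.2% higher and 32.0% lower among all tested genes, and they had 23.2% of TPM in DoG0 and 27.4% in Dry.

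Across the genome, 12628 of 20637 tested genes, or 61.2%, differed between the stages (edgeR adjusted p under 0.05), with 6027 higher out of the steep, or 29.2%, and 6601 lower, or 32.0%. With a fold change of at least 2 required, 7691 genes or 37.3% differed. By 4-fold or more, 1448 genes rose and 1565 fell; by 16-fold or more, 300 rose and 342 fell; by 64-fold or more, 75 rose and 74 fell. Risers and fallers were thus near in number at each of these sizes. The libraries of DoG0 and Dry did not overlap in 12114 genes, or 58.7%, among them 5470 of the genes called higher, 5903 of those called lower and 741 of the 8009 not called. The 8009 include 241 genes listed at 0 TPM in all 6 libraries.

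The split between higher and lower depended on what the levels were scaled to. Scaling by library size only, without TMM (a scaling that assumes most genes do not change), gave 7230 higher and 5248 lower and moved the median over all log2 fold changes to 0.17, against -0.02. On log2(TPM + 1) with limma the split was 9593 higher and 3094 lower, with a median of 0.36. The genes called lower held 36.1% ± 0.788 of TPM in DoG0 and 71.8% ± 4.18 in Dry, and those called higher held 37.8% ± 0.783 in DoG0 and 11.4% ± 1.96 in Dry (SD, n = 3 each). These shares describe genes chosen on the same libraries and were not tested.

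Intervals of the fold change were read for the 16973 tested genes with a mean of at least 1 CPM at 1 of the stages, a limit set after the data were seen. For 6124 of these, or 36.1%, the 95% interval of the log2 fold change lay entirely between -1 and 1. That is less than a 2-fold change on TMM-scaled counts, which is not the same as a change in the share of the pool. Of the 6124 genes, 3459 were not called and 2665 were called with a small change. For 1813 genes that were not called the interval reached past 2-fold, so a change of that size is not excluded in them. At the other end, the whole interval lay above a 2-fold rise in 1754 genes and below a 2-fold fall in 2046 genes.

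**Figure D2:**
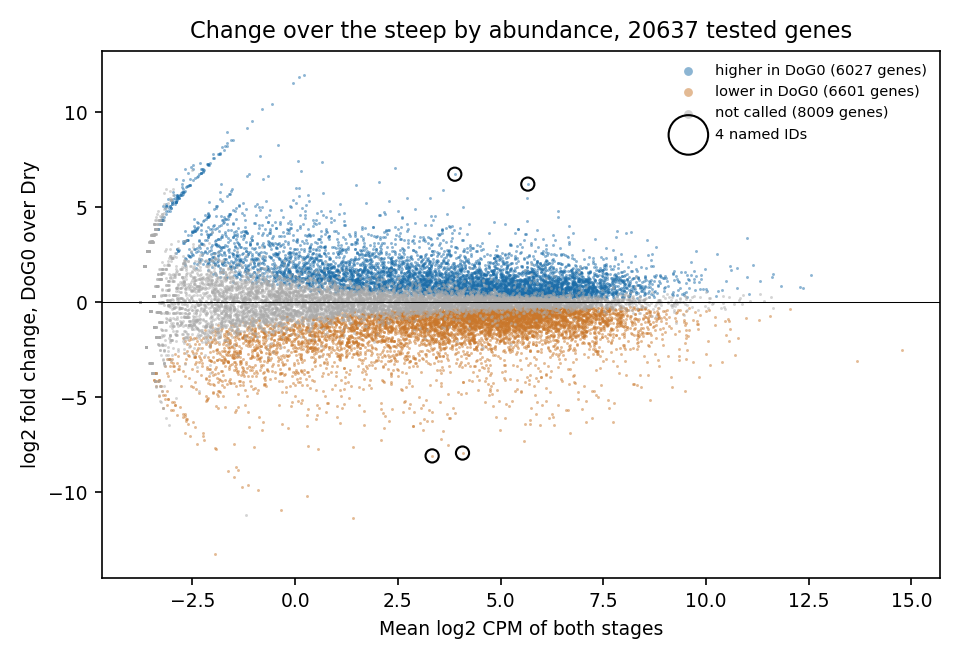
Log2 fold change, DoG0 over Dry, against the mean log2 CPM (read counts relative to the TMM-scaled library size) of the stages, 1 point for each of 20637 tested genes. Genes called higher (6027), called lower (6601) and not called (8009) are coloured apart, and the 4 named IDs are circled at log2 fold changes of 6.73, 6.21, -7.93 and -8.08.

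Over genes of all lengths, the balance of rises and falls shifted with abundance. Genes above 0 TPM in any of the 6 libraries were classed by their mean TPM over them. Under 1 TPM, 20.0% of 3796 genes were higher and 14.6% lower. At 10 to 100 TPM, 32.4% of 8192 genes were higher and 40.5% lower. At 100 to 1000 TPM, 25.4% of 1726 genes were higher and 52.6% lower, and at 1000 TPM or more 24 of 97 were higher and 49 lower. The split depends on the scaling, and these counts come from the TMM-scaled fit. In that fit falls outnumbered rises in the 3 upper classes and rises outnumbered falls in the 2 lower ones. This shift did not hold at every transcript length. In the longest of 5 length groups, 67.9% of 1964 genes at 10 to 100 TPM were higher and 11.7% lower. At 100 to 1000 TPM, 69.0% of the 200 longest were higher and 12.5% lower. The median SE of the log2 fold change was 0.74 under 1 TPM and 0.14 at 100 to 1000 TPM, so that the share called is limited by precision in the lowest class.

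Single messages moved far between abundance classes in both directions. Of 99 genes at a mean of 1000 TPM or more in Dry, 45 were still there in DoG0, 39 stood at 100 to 1000 TPM and 15 at 10 to 100 TPM. Of the 102 genes at that level in DoG0, 55 had been at 100 to 1000 TPM in Dry and 2 at 10 to 100 TPM. Replacement at the top thus came mainly from the class next below. Among 6804 genes at 1 to 10 TPM in Dry, 4120 stayed in the class, 2042 stood at 10 to 100 TPM and 15 at 100 to 1000 TPM out of the steep, and 627 fell below 1 TPM or were listed at 0. The median log2 ratio of mean TPM was 0.68 in this class, 0.38 in genes at 10 to 100 TPM in Dry, -0.19 at 100 to 1000 TPM and -1.22 at 1000 TPM or more. Genes grouped by a measured level in Dry tend to lie nearer the middle in any other measurement, and how much of these medians that makes up was not tested.

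**Figure D3:**
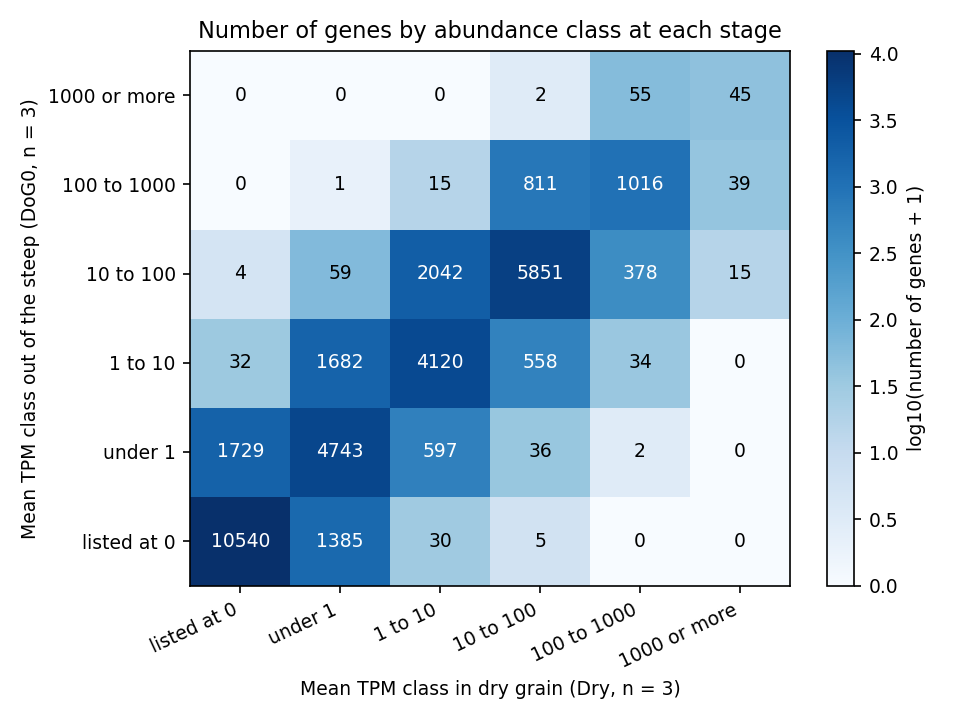
Number of genes in each class of mean TPM out of the steep (vertical) and in dry grain (horizontal), with colour on a log10 scale. Of 99 genes in the top class of Dry 45 stayed in it, and 5851 genes stood at 10 to 100 TPM at both stages.

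Few messages of some abundance were entirely lost or entirely new. At 1 CPM or more in Dry and with no count in the 3 DoG0 libraries there were 18 genes, with a median of 2.46 and a highest mean of 44.4 CPM in Dry. On day 5 of germination 5 of them stood at 1 CPM or more and 7 had no count. At 1 CPM or more in DoG0 and with no count in Dry there were 21 genes, with a median of 1.54 and a highest mean of 18.4 CPM in DoG0. Of the 21, 20 were tested and all 20 called, and of the 18, 10 were tested and 9 called. Both sets were picked by their counts in these same libraries, so these calls follow in part from the choice. After 1 day 14 of the 21 were at 1 CPM or more, and on day 5 it was 6. A count of 0 allows up to 3 counts, which is 0.108 to 0.118 CPM in a DoG0 library and 0.159 to 0.176 CPM in a Dry library, and these limits cover counting error only. The 21 became 36, 43 and 52 without Dry replicates A, B and C, since a few counts in 1 Dry library keep a gene out of the set. Thus 61.2% of tested genes were called different on TMM-scaled counts, and 37.3% with at least a 2-fold change. Few messages went from 1 CPM or more to no count at these depths.

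In these libraries the pool out of the steep lay in longer messages. Relative transcript length is the ratio of expected count to TPM, scaled to the typical gene. The length at which 50% of TPM lay in shorter messages was 0.968, 0.963 and 0.963 in DoG0 libraries, against 0.593, 0.699 and 0.691 in Dry libraries. Without the leading gene, itself at a relative length of 0.370, it was 0.988, 0.975 and 0.981 in DoG0 libraries and 0.680, 0.764 and 0.762 in Dry libraries. The DoG0 libraries lay close together and above each Dry library, and Dry replicate A was the shortest in each case.

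The relation to length was present at every level of abundance. Genes were ordered by length into 5 equal groups. At 10 to 100 TPM, 137 of 1275 genes of the shortest group were higher and 792 lower, against 1333 higher and 229 lower of 1964 in the longest. At 100 to 1000 TPM, 27 of 420 were higher and 327 lower in the shortest group, and 138 of 200 were higher and 25 lower in the longest. Under 1 TPM the medians of the log2 fold change ran from -0.19 in the shortest group to 0.90 in the longest, and at 100 to 1000 TPM from -1.18 to 0.78. In each of these classes falls outnumbered rises in the shortest group, and the reverse held in the longest. Above 1000 TPM, 36 of 43 in the shortest group were lower, and the other length groups held 7 to 19 genes each. From the second shortest group to the longest, 3, 6, 8 and 5 of these were higher and 8, 2, 3 and 0 lower.

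Seen library by library, the trend was steeper in dry grain. The median log2 CPM of the longest group, relative to each gene's mean over the 21 libraries, was 0.19, 0.15 and 0.18 in DoG0 libraries and -0.73, -0.50 and -0.56 in Dry libraries. In the shortest group it was -0.27, -0.25 and -0.28 in DoG0 libraries, against 0.47, 0.34 and 0.25 in Dry libraries. Dry replicate A lay farthest out at either end. With the trend removed from each library, 9714 of the 12628 calls kept their direction and 336 were called in the opposite direction, with 5194 genes higher and 6650 lower. Whether the relation to length arose in the grain or in the preparation of the libraries was not tested.

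**Figure D4:**
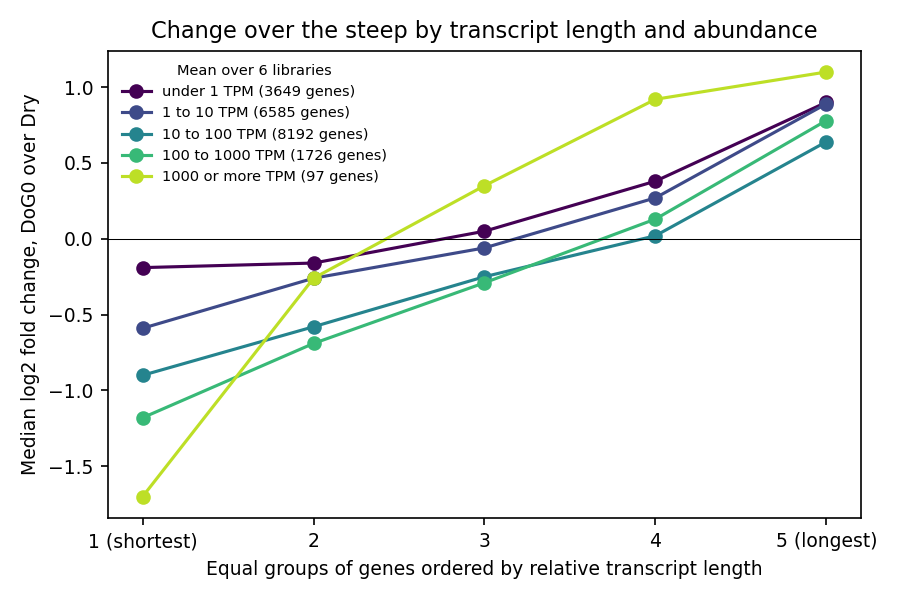
Median log2 fold change, DoG0 over Dry, in 5 equal groups of genes ordered by relative transcript length, with 1 line for each class of mean TPM over the 6 libraries. The lines run from below 0 in the shortest group to between 0.64 and 1.10 in the longest. In the class at 1000 TPM or more the 4 groups of longer genes hold 7 to 19 genes each.

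The IDs with the largest changes are given by a rule that asked for a call at 0.05, a level of 50 CPM or more on average at the stage where it was higher, at least 3 counts in each of the 6 libraries and no overlap between the groups. This left 1894 genes that rose and 2280 that fell, and the 2 with the largest change in each direction were taken, so that their separation follows from the rule. No name or role is attached to them in the sources used here.

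HORVU.MOREX.r3.6HG0628120, on chromosome 6H by the code in its ID, had 68.6, 404.4 and 138.8 CPM in DoG0 replicates A, B and C and 3.18, 0.294 and 2.20 CPM in Dry replicates A, B and C. It was high in each DoG0 library and differed several-fold among them, while Dry replicate B had 5 counts. The log2 fold change was 6.73 (SE 0.96, edgeR adjusted p = 9.51e-06) and went to 5.78 without DoG0 replicate B. Its mean was 16.0 ± 8.44 CPM after 1 day of germination and 0.241 ± 0.217 CPM after 2 days (SD, n = 3 each). The message was therefore seen mainly in grain just out of the steep.

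HORVU.MOREX.r3.1HG0082960, on chromosome 1H, had 437.1, 788.6 and 517.4 CPM in DoG0 libraries and 7.27, 0.763 and 15.4 CPM in Dry libraries. Again the Dry libraries differed more among themselves, in fold, than the DoG0 libraries did. The log2 fold change was 6.21 (SE 1.07, edgeR adjusted p = 6.90e-05), with 5.69 without Dry replicate B and 7.16 without Dry replicate C. By TPM its rank was 180 in DoG0 and 10791 in Dry. It had 71.9 ± 71.4 CPM after 1 day and 1.13 ± 1.58 CPM after 2 days (SD, n = 3 each), a course like that of the first ID. The expected counts of these 2 IDs were not whole in at least 1 library, which marks reads shared with another gene, so their levels are less certain than those of the 2 that follow.

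HORVU.MOREX.r3.6HG0564660, on chromosome 6H, had 0.430, 0.867 and 0.483 CPM in DoG0 libraries and 185.5, 166.7 and 129.4 CPM in Dry libraries. By TPM its rank was 17377 in DoG0 and 1206 in Dry, and 12 to 22 counts were left in a DoG0 library. The log2 fold change was -8.08 (SE 0.41, edgeR adjusted p = 1.20e-10). The message came back in germination, with 5.21 ± 3.02 CPM after 1 day, 58.8 ± 14.9 CPM after 2 days and 98.7 ± 17.8 CPM after 5 days (SD, n = 3 each).

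HORVU.MOREX.r3.3HG0246210, on chromosome 3H, had 1.54, 1.38 and 0.557 CPM in DoG0 libraries and 486.0, 223.7 and 142.1 CPM in Dry libraries. The log2 fold change was -7.93 (SE 0.56, edgeR adjusted p = 3.11e-09) and -7.28 without Dry replicate A, the highest library. It was still at 0.457 ± 0.223 CPM after 1 day and stood at 12.5 ± 3.29 CPM after 2 days and 28.7 ± 12.4 CPM after 5 days (SD, n = 3 each). The 2 stored messages thus stood under 2 CPM out of the steep and higher again from day 2, below their dry level on average.

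**Figure D5:**
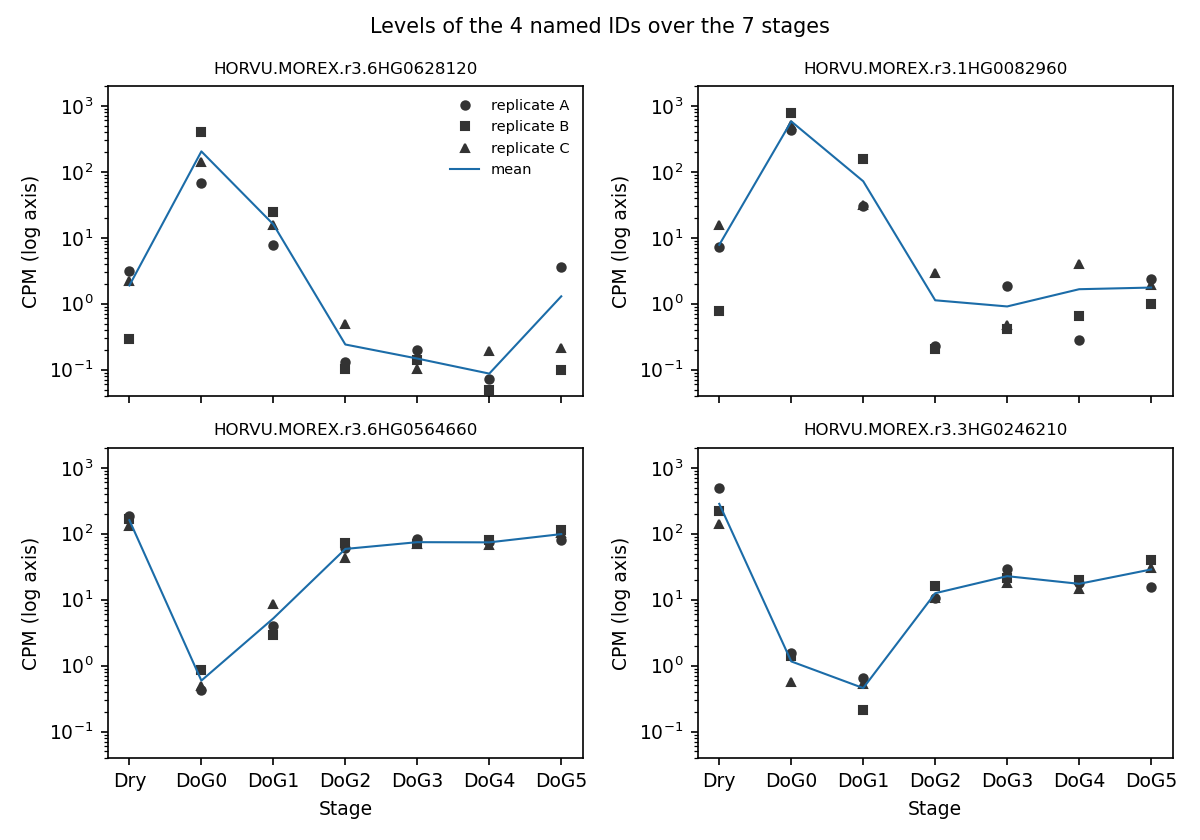
CPM (log axis) of the 4 named IDs in each of the 21 libraries over the 7 stages, with points for replicates A, B and C and a line for the mean; values under 0.05 CPM are drawn at 0.05. The 2 risers peak in DoG0 and the 2 fallers are lowest in DoG0 or DoG1.

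The return of strongly reduced messages was not limited to these IDs. Of the 689 genes that fell at least 8-fold over the steep, 102 stood within 2-fold of their dry level by mean log2 CPM after 1 day of germination, 173 after 2 days and 217, or 31.5%, after 5 days. On day 5 a further 141 stood at least 2-fold above the dry level and 331 at least 2-fold below it. Their median log2 level relative to Dry was -3.27 ± 0.16 in DoG0, -2.91 ± 0.30 after 1 day, -1.49 ± 0.24 after 2 days and -0.86 ± 0.19 after 5 days (SD over 3 libraries). The 636 genes that rose at least 8-fold kept more of their change: the median relative to Dry was 3.26 ± 0.13 in DoG0, 3.34 ± 0.12 after 1 day, 2.43 ± 0.05 after 2 days and 2.31 ± 0.04 after 5 days, and 491 were still at least 2-fold above the dry level on day 5. These genes were chosen for their distance from the Dry libraries, which every value shares, and no test was made between the 2 sets.

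The change over the steep was spread over all 7 chromosomes. The share of tested genes called was lowest on 6H, at 58.9% of 2472, and highest on 4H, at 63.6% of 2483, beside 61.2% over all. Genes on 5H held 20.1%, 20.8% and 21.1% of TPM in DoG0 libraries and 31.2%, 25.4% and 27.9% in Dry libraries, with no overlap. Without the leading gene, which is on 5H, the means were 17.9% in DoG0 and 18.6% in Dry, so that the difference for 5H was mostly that of 1 gene. Among 33 tested genes with the code Un in place of a chromosome, 1 was higher and 14 lower.

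The Dry libraries varied more than the DoG0 libraries. Over 14993 genes with a mean of at least 1 CPM at both stages, the SD of log2 CPM within a stage had a median of 0.183 in DoG0 and 0.285 in Dry. Against the mean of the other libraries of its stage, 139 to 669 of these genes were off by at least 2-fold in a DoG0 library and 1367 to 1413 in a Dry library. Pearson's r of log2 CPM between replicates, across genes, was 0.973 to 0.987 in DoG0 and 0.957 to 0.959 in Dry. With the fit restricted to the 6 libraries of the 2 stages 9634 genes were called, 9574 of them as in the fit of all 21.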

How the data were processed

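The authors deposited expected counts per gene and TPM for 21 poly-A selected, stranded libraries. The submitters' processing notes name STAR and RSEM without version or role. The gene IDs carry the prefix HORVU.MOREX.r3, and beyond it the sources used here name no genome build, annotation release or strand setting. Expected counts were rounded. Genes were filtered by stage with filterByExpr (minimum count 10, minimum total 15), which kept 20637 of 35826. Libraries were scaled by TMM, and all 21 libraries entered 1 quasi-likelihood fit with 7 stage means and the contrast DoG0 minus Dry (edgeR 4.0.16 in R 4.3.3). Adjustment was by Benjamini-Hochberg over all tested genes, with a threshold of 0.05. Standard errors are the absolute log2 fold change over the square root of F. CPM use TMM-scaled sizes, and log2 CPM a prior count of 2. Pool measures use the TPM of all genes, with exact permutation tests (scipy). Relative length is expected count over TPM (median of the libraries), from at least 10 counts and 0.5 TPM, divided by each library's median. It was known for 20472 tested genes. Expected counts were not whole, by more than 1e-09, in at least 1 library for 3809 tested genes, or 18.5%, which held 34.1% to 34.8% of counts in DoG0 and 39.7% to 44.9% in Dry.

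Alternatives were library sizes only, DESeq2 1.42.0, limma 3.58.1 on log2(TPM + 1) and log2(TPM + 0.1), no filter, the 6 libraries alone, length trend removal (lowess, span 0.3), a replicate block and leaving out each library. The fit was tested on simulated data. The rule for IDs stands in the report. It and the settings were chosen with earlier results of these data known. Role lists were to be matched by name and, without names, were not run. Setting aside the leading gene, alone or with Dry replicate A, was chosen after seeing the data.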

Additional observations from a re-analysis of the deposited data

How the results depend on the processing

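The number of genes called ran from 9634 with the 6 libraries alone to 13165 with limma on log2(TPM + 0.1), against 12628. On log2(TPM + 1) 9593 genes were higher and 3094 lower, and on log2(TPM + 0.1) it was 10019 and 3146; 228 and 239 of the 12628 calls were then called in the opposite direction. With library sizes only 57.9% of the called genes were higher, against 47.7%. DESeq2 called 12905, 12515 of them as in edgeR. Leaving out any 1 library left 11815 to 12511 calls. At 5 CPM in place of 1 CPM, 4 genes of dry grain had no count out of the steep and 5 showed the reverse; without any 1 library the second set held 17 to 52 genes. The cause of these shifts was not tested, except that fewer libraries need to lack a count when 1 is left out. All 4 IDs passed the test in the same direction under every alternative run, which follows in part from the rule that picked them. Deviations from stage means of same-lettered DoG0 and Dry libraries correlated at -0.295, -0.233 and -0.030, and those of unlike letters at -0.195 to 0.346. Deviations from a mean of 3 libraries depend on one another, so these values cannot show whether the letters A to C pair the libraries. With the letter as a replicate block 12427 genes were called, 5980 higher and 6447 lower.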

Other observations

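Genes that follow each other in the order of the ID numbers changed slightly alike over the steep. ID numbers are taken here as an order within a chromosome, since the files give no positions. Pearson's r of the log2 fold change between tested genes 1 step apart was 0.123 over 20597 pairs, 0.0559 at 2 steps, 0.0195 at 5 steps and -0.000938 at 10 steps, across genes that share their libraries. At 1 step, 65 pairs had both genes at least 8-fold higher and 84 had both at least 8-fold lower, against 31 and 19 pairs at 10 steps. Without the genes whose expected counts were not whole, r at 1 step was 0.0665 over 16816 pairs, with 38 and 27 such pairs.

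With each chromosome cut into 10 equal parts by ID order, falls were most frequent in the middle. In the sixth part 26.8% of 2276 tested genes were higher and 36.3% lower, whereas in the first 31.5% of 1813 were higher and 29.0% lower, and in the last 30.7% of 1880 were higher and 27.7% lower. The median log2 of mean TPM was 3.57 in the sixth part, 2.64 in the first and 2.55 in the last, and the part of abundance in this difference was not tested.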
